A study of Mus musculus with 6 samples.

Results

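The 10 genes described here are members of the BCL2 family, which sets the threshold at which a cell enters mitochondrial apoptosis: Bcl2, Bcl2a1b, Bcl2a1d, Mcl1 and Bcl2l1 on the survival side, the BH3-only genes Bcl2l11, Pmaip1 and Bbc3, and the effectors Bax and Bak1. They were taken by symbol from an RNA-seq table of 54532 genes, all 10 were found, and all 10 were among the 12755 genes that passed the filter on low values (a level of 1 TPM or more in 2 or more of the 6 libraries). TPM is a transcript level corrected for gene length and for library depth, and the TPM of a library sum to a fixed total. Primary bone-marrow-derived macrophages (BMDMs) of C57BL/6 mice, grown in medium conditioned by L929 cells, were left untreated (Untr), were stimulated with 100 ng/ml of the bacterial cell wall component lipopolysaccharide for 2 h (LPS), or received the same LPS stimulus after 6 h of pretreatment with metformin at 5 mM (Met + LPS). Metformin is a biguanide used in type 2 diabetes. Each group held 2 libraries. No sample received metformin alone. A difference between Met + LPS and LPS is one between LPS-stimulated cells with and without metformin pretreatment. Whether it was already present before LPS was added cannot be told apart. The study seeded its cells in duplicate and the labels name no separate mice, so the tests measure the spread between these 2 libraries, which may be technical. The 3 comparisons share libraries, so their values for a gene are set side by side and are not independent of each other.

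Apoptosis through the mitochondria begins when BAX and BAK form pores in the outer mitochondrial membrane and release cytochrome c. The survival proteins hold BAX and BAK in check, and the BH3-only proteins BIM (Bcl2l11), NOXA (Pmaip1) and PUMA (Bbc3) bind the survival proteins and set the effectors free. BIM and PUMA bind all survival proteins, whereas NOXA prefers MCL1 and A1. In macrophages, LPS signals through TLR4 to NF-kappaB, and A1, the product of the mouse Bcl2a1 copies, is a classical NF-kappaB-dependent survival gene of inflammatory cells.

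The sharpest change among the members was in the Bcl2a1 copies, which mouse carries as near-identical duplicates, so their sequences come first. The stretches below lie directly upstream of the annotated genes on chromosome 9 (RefSeq promoter windows, build GRCm38.p6, with the bases that fall inside the GENCODE gene left out) and are shown because they let a reader see how alike the copies are where transcription starts. They cover chr9:89199023-89199208 on the plus strand for Bcl2a1b, chr9:88731915-88732100 on the minus strand for Bcl2a1d and chr9:88956670-88956899 on the plus strand for Bcl2a1a, a further copy that is not a member. Capitals mark a match to TGANTCA, the letters searched for AP-1 on both strands, in which N accepts any base. The match reads TGAATCA in each copy shown, so it rests on that open middle base.
Bcl2a1b: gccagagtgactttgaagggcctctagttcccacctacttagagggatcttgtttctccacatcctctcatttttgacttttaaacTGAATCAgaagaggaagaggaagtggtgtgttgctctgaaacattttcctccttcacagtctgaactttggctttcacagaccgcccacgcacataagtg
Bcl2a1d: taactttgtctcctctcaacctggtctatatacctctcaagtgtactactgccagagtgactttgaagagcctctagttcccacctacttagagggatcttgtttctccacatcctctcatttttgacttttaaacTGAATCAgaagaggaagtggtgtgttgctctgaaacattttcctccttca
Bcl2a1a: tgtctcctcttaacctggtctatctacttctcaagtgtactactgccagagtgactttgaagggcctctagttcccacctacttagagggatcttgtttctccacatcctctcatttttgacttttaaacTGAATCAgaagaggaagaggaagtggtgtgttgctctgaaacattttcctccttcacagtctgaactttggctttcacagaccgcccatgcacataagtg
The AP-1 letters began at position -164 from the RefSeq start of Bcl2a1b, -114 from that of Bcl2a1d and -120 from that of Bcl2a1a, counting the base before the start as -1. In local alignments of the full windows of 250 bases, Bcl2a1b and Bcl2a1d were identical at 96.1% of 206 aligned positions, and Bcl2a1a and Bcl2a1b at 99.5% of 206. AP-1 letters were present in 6.75% of all 32851 such mouse windows. Among the 14 start sites of the 9 members whose windows were searched, they were found in those of Bcl2a1b and Bcl2a1d. Letters for a kappaB site (GGGNNNTTC, 11.8% of all windows) were found in 3 of the 14, at Mcl1, Bcl2l1 and Bbc3. The FOXO letters TGTTTAC (3.17% of all windows) were found in 2, at Bcl2l11 and Bbc3, and the C/EBP-ATF letters TGATGNAAT (0.816% of all windows) in 0. A match of letters is a description of the sequence, not a bound site.

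The likeness runs through the transcripts too. The longest annotated transcripts of Bcl2a1b and Bcl2a1d are 93.9% identical and those of Bcl2a1a and Bcl2a1b 97.9% identical. Of all stretches of 31 bases in the exons, 11.2% of those of Bcl2a1b and 10.9% of those of Bcl2a1d occur in no other annotated gene. How reads that match several copies were counted is not given in the sources used here, so the split of reads between the copies is uncertain and their summed level is given beside each. Bcl2a1b also shares 401 of its 817 exonic bases on the same strand with the gene model Gm29094, which is listed at 0 TPM in every library. Whether reads in that overlap were counted for Bcl2a1b or dropped is not given either, so its level may be understated. Of the other members, Bak1 had 79.6% of such stretches to itself (the rest shared with Ggnbp1, which overlaps it on the opposite strand), Bax 88.9% (Gm45808, which overlaps it on the same strand) and Bcl2 93.8% (mainly the antisense gene D630008O14Rik), and the remaining members at least 99.5%. Whether reads were counted by strand is not given in the sources used here, and without strand the reads of Bcl2 and D630008O14Rik, or of Bak1 and Ggnbp1, cannot be told apart where they overlap. D630008O14Rik and Gm45808 are listed at 0 TPM in every library and Ggnbp1 at no more than 0.744 TPM.

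The libraries held 25457016 to 30762754 reads on genes, recovered from TPM and exon length. Macrophage markers were present throughout (8 of 8, with summed TPM of 44621 to 46599 in Untr, 37412 to 37903 in LPS and 30877 to 30948 in Met + LPS), whereas 4 of 4 T cell, 4 of 4 erythroid, 4 of 5 B cell and 4 of 5 fibroblast markers lay under 1 TPM in all libraries. Neutrophil markers summed to 29.99 to 32.78 TPM in Untr, 26.7 to 28.17 in LPS and 43.83 to 45.87 in Met + LPS, with the defining marker Ly6g at no more than 0.140 TPM. Dendritic cell markers summed to 1.63 to 2.73 TPM in Untr, 3.04 to 3.13 in LPS and 5.07 to 5.34 in Met + LPS. Of the 8 macrophage markers 6 were called lower in Met + LPS than in LPS, Fcgr1 by the most (difference -1.14, from a mean of 165.2 to 74.4 TPM). Of the dendritic cell markers, Ccr7 was called 1.051 higher, from a mean of 1.018 to 3.181 TPM. None of the others was called there: Zbtb46 was lower (difference -0.38), Xcr1 was higher (0.35), and Flt3 lay under 1 TPM and was not tested. The part of these shifts in the members' values was not tested. Between the untreated and the stimulated cells the whole table moved: the median tested gene differed by -0.48 on the log2 scale in LPS against Untr. After rescaling the libraries by their median ratio that shift was -0.01, and differences from Untr are therefore given on both scales. Between Met + LPS and LPS the median gene differed by -0.03, and scaling changed no direction among the members. Bulk TPM, which sum to a fixed total, show neither the number of cells nor the RNA per cell, so these cannot be told apart.

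With adjusted p under 0.01 by limma on log2(TPM + 1) as the call, 4 members were higher in LPS than in Untr (Bcl2a1d, Bcl2a1b, Bcl2l11 and Bcl2l1) and 6 were lower, against 16.2% of all tested genes called higher and 60.1% called lower. After rescaling, 5 were called higher and 1 lower, against 30.6% and 27.6% of all tested genes on that scale. The rises of Bcl2a1d, Bcl2a1b, Bcl2l11 and Bcl2l1 and the fall of Pmaip1 held on both scales. Bcl2, Mcl1 and Bax lost the call after rescaling, Bbc3 changed sign without a call and Bak1 changed sign to higher. The study's cut-off for LPS, an absolute log2 difference of at least 2, was passed by Bcl2a1b and Bcl2a1d, against 6.08% of all tested genes. Metformin before LPS was accompanied by higher levels of Bcl2, Bbc3, Pmaip1, Bcl2a1b and Mcl1 and lower levels of Bcl2l1 and Bcl2l11 than LPS alone, so 5 were called higher and 2 lower, against 14.5% and 18% of all tested genes. Bcl2, Bbc3 and Pmaip1 passed the cut-off of 0.7 that the study set for this comparison, which 8.28% of all tested genes passed. The median difference of the 10 members was 0.30 in Met + LPS against LPS, beside -0.03 over all tested genes, and -0.25 in LPS against Untr, beside -0.48.

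**Figure D1:**
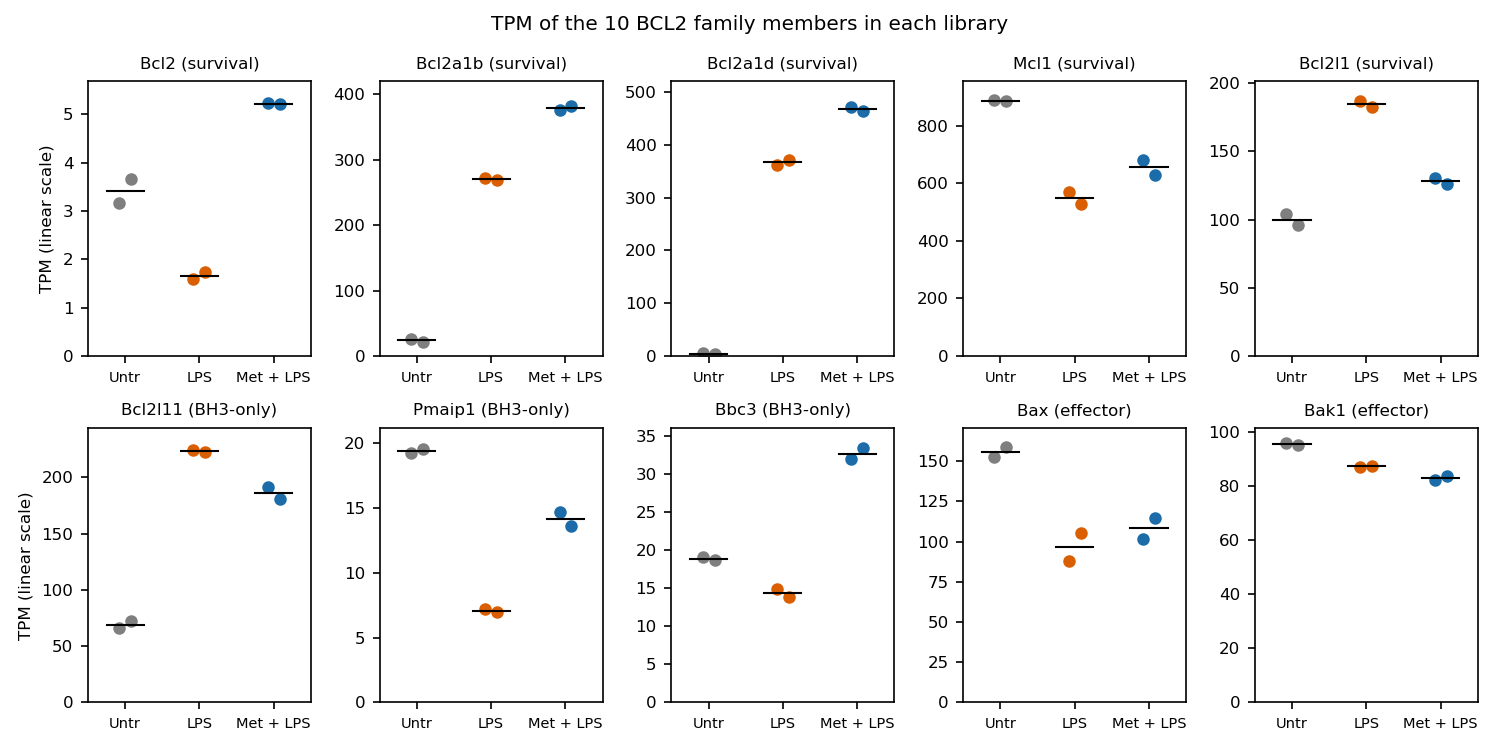
Levels of the 10 members in TPM (linear axis from 0, a scale of its own per gene) in each library of the 3 groups; points are libraries and bars are means of 2. Bcl2a1b and Bcl2a1d stood far above their untreated level in all 4 stimulated libraries, and Bcl2 and Bbc3 were highest in both Met + LPS libraries.

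Bcl2a1d was the member that moved furthest. This survival gene (ENSMUSG00000099974, chr9:88723285-88731914, minus strand) was measured at 5.33 and 3.72 TPM in the Untr libraries, 362.9 and 372 TPM in LPS, and 472.1 and 464 TPM in Met + LPS. The untreated libraries were thus almost without it, on 35 and 23 recovered reads, and no stimulated library came near them. The mean level was 81.2 times higher in LPS than in Untr, a log2 difference of 6.07 (95% interval 5.78 to 6.37, adjusted p = 7.19e-08, limma). Met + LPS stood above LPS in both libraries, by 0.35 on the log2 scale (interval 0.05 to 0.64), which did not pass the call (adjusted p = 0.056). It passed in a limma fit of the LPS and Met + LPS libraries alone (adjusted p = 0.00245). It did not pass in limma with a pseudocount of 0.1 (adjusted p = 0.101), without the filter (0.17) or without the trend (0.107). Nor did it with voom on recovered reads (adjusted p = 0.123). With any 1 library left out, the difference ran from 0.33 to 0.37, and the call was made only without Untr 1 or without Untr 2.

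Bcl2a1b (ENSMUSG00000089929, chr9:89199209-89207827, plus strand) started from a higher level, with 26.4 and 21.87 TPM in Untr, and reached 272.4 and 269.5 TPM in LPS and 376.1 and 381.8 TPM in Met + LPS. The 3 groups did not overlap. LPS raised the mean level 11.2 times (log2 difference 3.44, interval 3.25 to 3.63, adjusted p = 1.27e-07). Met + LPS was higher again by 0.48 (interval 0.29 to 0.67, adjusted p = 0.00295). That call was lost when any of LPS 1, LPS 2, Met + LPS 1 or Met + LPS 2 was left out (adjusted p up to 0.0239), while the difference stayed between 0.47 and 0.49.

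Summed over Bcl2a1b and Bcl2a1d, the level was 28.7 ± 4.34 TPM (mean ± SD, n = 2) in Untr, 638.4 ± 4.43 in LPS and 847 ± 1.72 in Met + LPS. With the copies Bcl2a1a and Bcl2a1c added, it was 29.2, 682.9 and 894.3 TPM. Bcl2a1a itself was measured at 0.161 and 0.341 TPM in Untr, 40.9 and 36.31 in LPS and 36.18 and 42.49 in Met + LPS, so its stimulated groups overlapped. Its difference between Met + LPS and LPS was 0.02 (interval -0.24 to 0.29). The share of Bcl2a1d in the sum of Bcl2a1b and Bcl2a1d was 15.7% in Untr, 57.6% in LPS and 55.3% in Met + LPS, and how far that split is set by shared reads was not tested.

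Mcl1, a short-lived survival protein that macrophages depend on, was the most abundant member in every library. Its gene (ENSMUSG00000038612, chr3:95658788-95663176, plus strand) was measured at 890.2 and 884.9 TPM in Untr, 570.4 and 527.8 in LPS, and 680.4 and 629.7 in Met + LPS. The groups did not overlap, with Met + LPS in between. The difference between LPS and Untr was -0.69 as deposited (adjusted p = 2.34e-05) and -0.17 after rescaling (adjusted p = 0.023), so the call depends on the scale. Met + LPS was 0.25 above LPS (interval 0.13 to 0.38, adjusted p = 0.00733). That call was lost when Untr 1, Untr 2, LPS 2, Met + LPS 1 or Met + LPS 2 was left out, with adjusted p up to 0.0411 and differences down to 0.20.

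Bcl2l1, which encodes BCL-XL, and Bcl2 itself differed in direction in both comparisons as deposited. Bcl2l1 (ENSMUSG00000007659, chr2:152780668-152831728, minus strand) was measured at 104.1 and 95.82 TPM in Untr, 187.1 and 182.5 in LPS and 130.4 and 125.8 in Met + LPS. It rose with LPS by 0.88 on the log2 scale (interval 0.77 to 0.996, adjusted p = 5.6e-06, and 1.40 after rescaling). Met + LPS was lower than LPS, with a difference of -0.53 (interval -0.64 to -0.41, adjusted p = 2.56e-04). Both calls held when any 1 library was left out. Met + LPS remained 0.36 above Untr (adjusted p = 4.14e-04).

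Bcl2 (ENSMUSG00000057329, chr1:106538178-106714274, minus strand), the founding member of the family, was the least abundant member in each group by its mean. It was measured at 3.16 and 3.659 TPM in Untr, 1.592 and 1.736 in LPS and 5.23 and 5.207 in Met + LPS, on 111 to 422 recovered reads per library. LPS libraries were the lowest and Met + LPS libraries the highest, without overlap. Met + LPS exceeded LPS 3.14 times in mean TPM, a log2(TPM + 1) difference of 1.22 (interval 0.99 to 1.46, adjusted p = 1.6e-04), the largest metformin difference of any member. The added 1 TPM understates changes of so low a gene. The difference between LPS and Untr was -0.73 as deposited (adjusted p = 4.33e-04) and -0.35 after rescaling (adjusted p = 0.017). Met + LPS stood 0.50 above Untr (adjusted p = 0.00281) and 0.92 above it after rescaling. The call as deposited was lost without Untr 1, Met + LPS 1 or Met + LPS 2 (adjusted p up to 0.0203).

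The make-up of the survival side differed between Untr and the stimulated groups. The 5 survival members together held 1020 ± 13.6 TPM in Untr, 1374 ± 28.8 in LPS and 1635 ± 40.8 in Met + LPS. Mcl1 made up 87.1% ± 0.795 of that sum in Untr, 40.0% ± 1.35 in LPS and 40.0% ± 1.19 in Met + LPS. Bcl2a1b and Bcl2a1d together made up 2.81% ± 0.389, 46.5% ± 1.297 and 51.8% ± 1.19. Bcl2l1 gave 9.80% in Untr, 13.5% in LPS and 7.83% in Met + LPS, and Bcl2 no more than 0.362% in any library. Being ratios within a library, these shares do not move with the scaling of libraries.

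**Figure D2:**
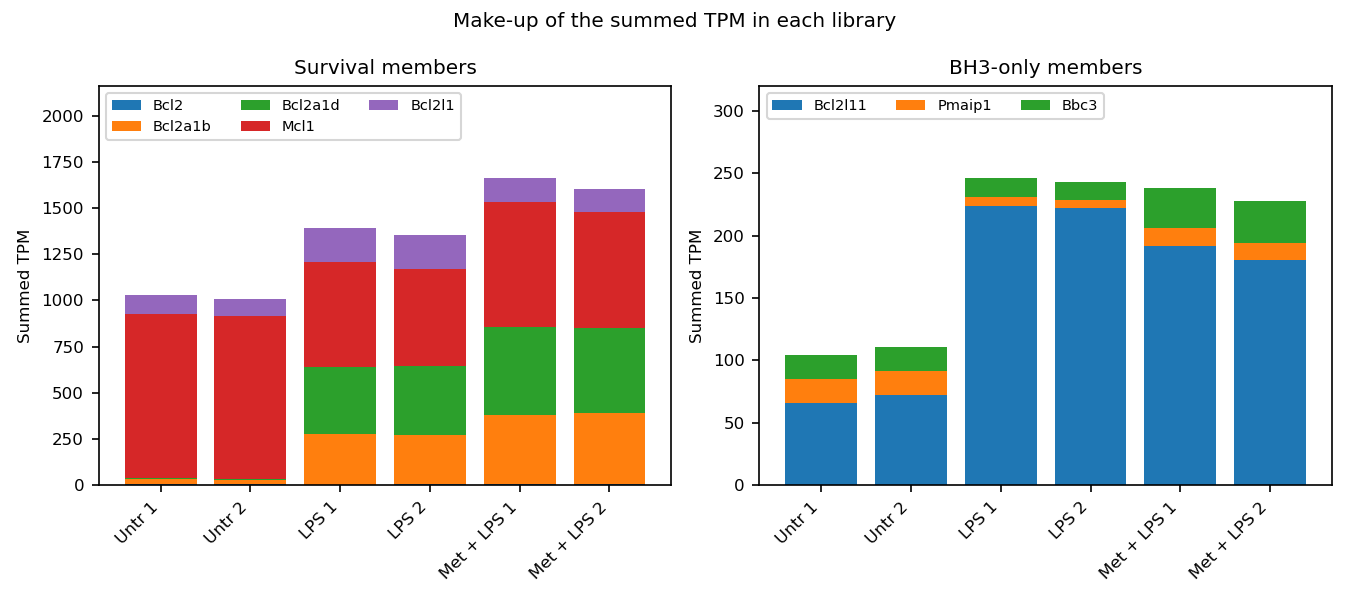
Summed TPM of the survival members (left) and of the BH3-only members (right) in each library, stacked by gene on linear axes from 0. Mcl1 filled 87.1% of the survival bar in Untr and 40.0% in LPS and in Met + LPS, where Bcl2a1b and Bcl2a1d filled 46.5% and 51.8%; Bcl2 is too low to be seen.

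Among the BH3-only members, Bcl2l11 was the most abundant and moved against Bbc3 and Pmaip1 in both comparisons as deposited. Bcl2l11 (ENSMUSG00000027381, chr2:128126038-128162547, plus strand) encodes BIM and was measured at 65.91 and 72.01 TPM in Untr, 224.2 and 222 in LPS and 191.6 and 180.9 in Met + LPS. It rose 3.23 times in mean TPM with LPS (log2 difference 1.68, interval 1.56 to 1.80, adjusted p = 4.42e-07). After rescaling the difference was 2.20, which would pass the cut-off of 2. Met + LPS was lower than LPS, with a difference of -0.26 (interval -0.38 to -0.14, adjusted p = 0.00653), with no overlap of the groups. That call was lost without LPS 1, LPS 2, Met + LPS 1 or Met + LPS 2 (adjusted p up to 0.0414).

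Bbc3 (ENSMUSG00000002083, chr7:16308393-16318205, plus strand) encodes PUMA, a target of p53 and of several stress pathways. Its levels were 19.13 and 18.73 TPM in Untr, 14.91 and 13.87 in LPS and 32.01 and 33.41 in Met + LPS. Both Met + LPS libraries stood above every other library. Met + LPS exceeded LPS 2.27 times in mean TPM (log2 difference 1.13, interval 1.0009 to 1.26, adjusted p = 2.42e-05) and exceeded Untr by 0.76 (adjusted p = 1.86e-05). Between LPS and Untr the difference was -0.37 as deposited (adjusted p = 6.06e-04) and 0.12 after rescaling (adjusted p = 0.0801), so its direction depends on the scale.

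Pmaip1 (ENSMUSG00000024521, chr18:66458604-66465550, plus strand) encodes NOXA and was measured at 19.24 and 19.52 TPM in Untr, 7.20 and 6.94 in LPS and 14.7 and 13.62 in Met + LPS. LPS was lowest and Untr highest, without overlap. It fell with LPS on both scales, by 1.34 on the log2 scale as deposited (adjusted p = 2.44e-06) and by 0.85 after rescaling (adjusted p = 2.46e-05). In Met + LPS it stood 2.00 times above LPS in mean TPM (log2 difference 0.91, interval 0.77 to 1.053, adjusted p = 7.25e-05). Against Untr, Met + LPS differed by -0.43 as deposited (adjusted p = 5.03e-04) and by 0.08 after rescaling (adjusted p = 0.249). The calls of Bbc3 and Pmaip1 between Met + LPS and LPS held when any 1 library was left out, as did that of Bcl2.

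The summed level of the BH3-only members was 107.3 ± 4.23 TPM in Untr, 244.6 ± 2.43 in LPS and 233.1 ± 7.31 in Met + LPS. Bcl2l11 made up 64.3% ± 1.49 of it in Untr, 91.2% ± 0.287 in LPS and 79.9% ± 0.727 in Met + LPS. Bbc3 gave 17.7%, 5.88% and 14.04%, and Pmaip1 18.1%, 2.89% and 6.07%. The ratio of summed TPM, survival members over BH3-only members, was 9.52 ± 0.502 in Untr, 5.62 ± 0.0621 in LPS and 7.02 ± 0.045 in Met + LPS. The libraries of the 3 groups did not overlap in it. Both sums leave out other genes of their class, so the ratio holds for the members only. Bid averaged 65.9 TPM in Untr, 34.6 in LPS and 40.9 in Met + LPS. Bad averaged 42.6, 27.6 and 23.4 TPM, Bmf 16.6, 0.434 and 0.277, and Bik 1.115, 1.314 and 0.942. Bid, Bad and Bmf thus had lower means in LPS than in Untr, against the rise of the summed BH3-only members. The fall of the ratio from Untr to LPS therefore cannot be read as a fall over the whole family. A ratio over more of the family was not computed. Ratios of transcripts say nothing of the proteins.

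Neither effector was called between Met + LPS and LPS. Bax (ENSMUSG00000003873, chr7:45461697-45466898, minus strand) was measured at 152.7 and 158.9 TPM in Untr, 87.86 and 105.5 in LPS and 101.5 and 114.8 in Met + LPS, so the stimulated groups overlapped. LPS and Untr differed by -0.69 as deposited (adjusted p = 4.45e-04) and by -0.17 after rescaling (adjusted p = 0.166). Met + LPS and LPS differed by 0.16 (interval -0.06 to 0.39, adjusted p = 0.2). Bak1 (ENSMUSG00000057789, chr17:27019810-27029009, minus strand) was measured at 96.11 and 95.28 TPM in Untr, 87.32 and 87.61 in LPS and 82.38 and 83.98 in Met + LPS. Its groups did not overlap, but the steps were small. LPS and Untr differed by -0.13 as deposited (adjusted p = 0.0089), a call that was lost when any 1 of the 6 libraries was left out (adjusted p up to 0.0444), and by 0.39 in the other direction after rescaling (adjusted p = 5.81e-05). Met + LPS and LPS differed by -0.07 (interval -0.15 to 0.01, adjusted p = 0.117). The summed effector level was 251.5 ± 3.79 TPM in Untr, 184.1 ± 12.7 in LPS and 191.3 ± 10.5 in Met + LPS, and the ratio of survival to effector TPM 4.06 ± 0.115, 7.49 ± 0.671 and 8.57 ± 0.685.

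**Figure D3:**
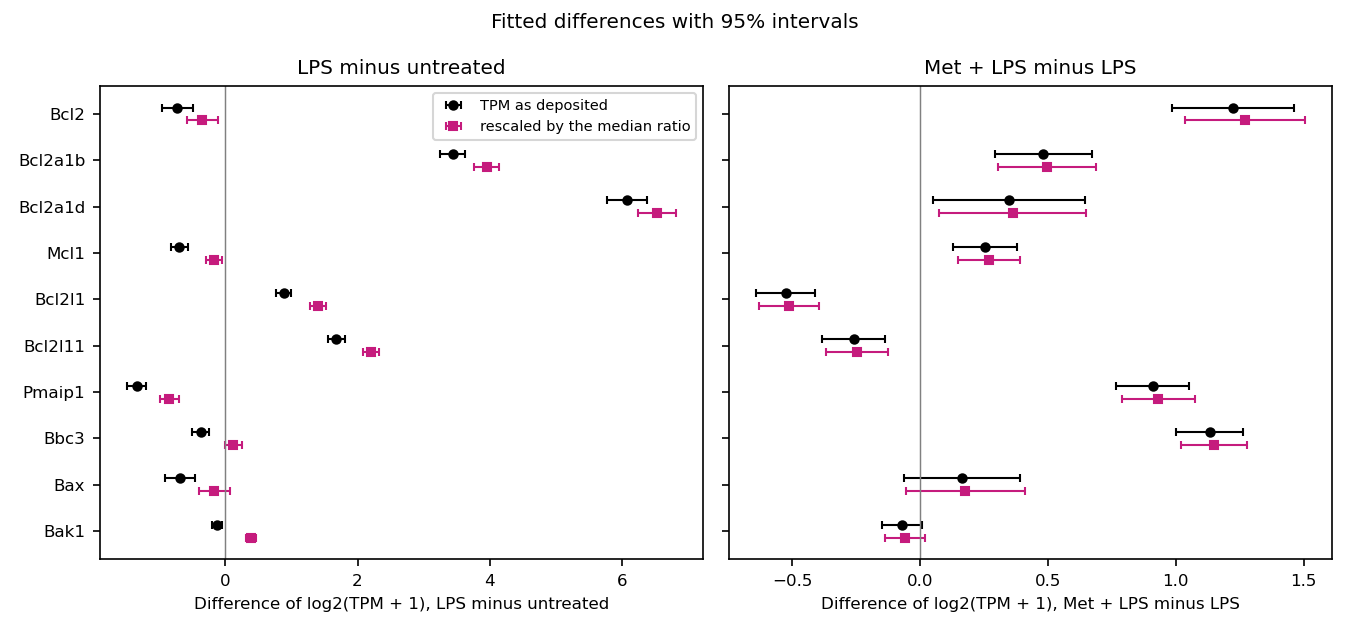
Fitted differences of log2(TPM + 1) with 95% intervals for LPS minus Untr (left) and Met + LPS minus LPS (right), on TPM as deposited (black circles) and after median-ratio rescaling (pink squares). On the left Bbc3 and Bak1 change sign between the scales; on the right Bcl2, Bbc3 and Pmaip1 lie furthest above 0 and Bcl2l1 furthest below.

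Ordered by mean TPM, the members ran in Untr from Mcl1 over Bax, Bcl2l1, Bak1, Bcl2l11, Bcl2a1b, Pmaip1, Bbc3 and Bcl2a1d to Bcl2. Bcl2l1 and Bak1 overlapped in that order and no other neighbours did, although the libraries of Pmaip1 and Bbc3 lay within 1 TPM of each other. In LPS the order was Mcl1, Bcl2a1d, Bcl2a1b, Bcl2l11, Bcl2l1, Bax, Bak1, Bbc3, Pmaip1 and Bcl2, and Met + LPS had the same order, with no overlap between neighbours in either. Against Untr, Met + LPS had 6 members called higher and 4 lower as deposited (16.3% and 58.8% of all tested genes) and 7 higher and 0 lower after rescaling (33.4% and 29.7% of all tested genes on that scale), where Mcl1, Pmaip1 and Bax changed sign without a call and Bak1 changed sign to higher at 0.33. Bcl2a1b and Bcl2a1d passed a difference of 2, against 5.35% of all tested genes. The median difference of the members was 0.43, beside -0.48 over all tested genes.

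The nearest patterns over the 6 libraries were found by Euclidean distance between centred log2(TPM + 1) values. Bcl2 lay nearest to Gtpbp2 (distance 0.164), Efcc1 and Cyfip2, of which Gtpbp2 averaged 59.4 TPM in Untr, 36.2 in LPS and 81.6 in Met + LPS. Bbc3 lay nearest to Arhgap24 (0.088), Glce and Mllt3, and Pmaip1 to Dclre1b (0.080), Lyst and Zbtb38. Bcl2a1b had Pim1 (0.259), Hivep3 and Gm17334 as its nearest genes and Bcl2a1d had Ccl4 (0.342), Ifit2 and AW112010. Bcl2l1 was nearest to Dnaja1 (0.084), Atp11a and Plcd1, Bcl2l11 to Fndc3a (0.153), Socs7 and March5, and Mcl1 to Zcchc4 (0.072), Ercc6l2 and Plxnc1. Bax was nearest to Pold4 (0.095), Rex1bd and Gnal, and Bak1 to Psmc2 (0.036), Slu7 and Rab2a.

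In the rest of the family calls were made in LPS against Untr and in no tested gene between Met + LPS and LPS. In the latter comparison 14.5% of all tested genes were called higher and 18% lower. The counts of these lists stand beside the 16.2% of all tested genes called higher and 60.1% called lower in LPS against Untr (30.6% and 27.6% after rescaling). Of the other survival genes, 2 of 3 tested were called higher in LPS than in Untr, Bcl2a1a and Bcl2a1c, while Bcl2l10 was listed at 0 throughout. After rescaling all 3 were called higher. The third, Bcl2l2, differed by -0.10 as deposited (adjusted p = 0.129) and by 0.41 after rescaling (adjusted p = 5.55e-04). Of the other BH3-only genes, 3 of 4 tested were called lower in LPS. Bmf, a BH3-only gene tied to the cytoskeleton, went from 15.2 and 18.02 TPM in Untr to 0.450 and 0.417 in LPS and 0.252 and 0.301 in Met + LPS, and fell by 3.61 between Untr and LPS (adjusted p = 5.97e-07). Bid, which links death receptors to the mitochondria, fell by 0.91 as deposited, from a mean of 65.9 to 34.6 TPM. Bad was called lower as deposited but not after rescaling, where 2 of the 4 were called lower. All 4 tested genes of the effector and divergent list (Bcl2l12, Bnip3, Bnip3l and Bcl2l13) were called lower in LPS, 2 of them also after rescaling. Hrk was listed at 0, and Bok, Bcl2l14 and Bcl2l15 lay under 1 TPM.

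Downstream of the mitochondria, 3 of 10 apoptosome and caspase genes were called higher and 6 lower in LPS against Untr (4 and 4 after rescaling), beside the same shares of all tested genes. Casp9, the initiator caspase that the apoptosome activates, fell by 2.49, from 46.97 and 49.77 TPM to 7.33 and 8.31, and was 0.44 higher in Met + LPS than in LPS (adjusted p = 0.00457). Between Met + LPS and LPS 5 of the 10 were lower and 1, Casp9, was higher, beside 18% and 14.5% of all tested genes. The executioner caspase gene Casp6 differed by -0.60, and Apaf1, the scaffold of the apoptosome, by -0.52. Of 6 inhibitor of apoptosis genes and antagonists, LPS raised 2 on both scales, Birc3 by 2.40 and Birc2 by 1.31, and both were lower with metformin, with differences of -0.67 and -0.37. Birc5 and Htra2 were called lower in LPS as deposited but not after rescaling. In the death receptor pathway, 3 of 6 were called higher and 3 lower in LPS (3 and 1 after rescaling). Cflar, which blocks caspase-8, averaged 25.2 TPM in Untr, 411.1 in LPS and 400.4 in Met + LPS, a rise of 3.98 with LPS and a difference of -0.04 with metformin (interval -0.12 to 0.04). Fas rose by 3.24 with LPS and was lower with metformin (difference -0.54), as was the necroptosis kinase gene Ripk3 (difference -0.57), and the other 4 were not called there.

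**Figure D4:**
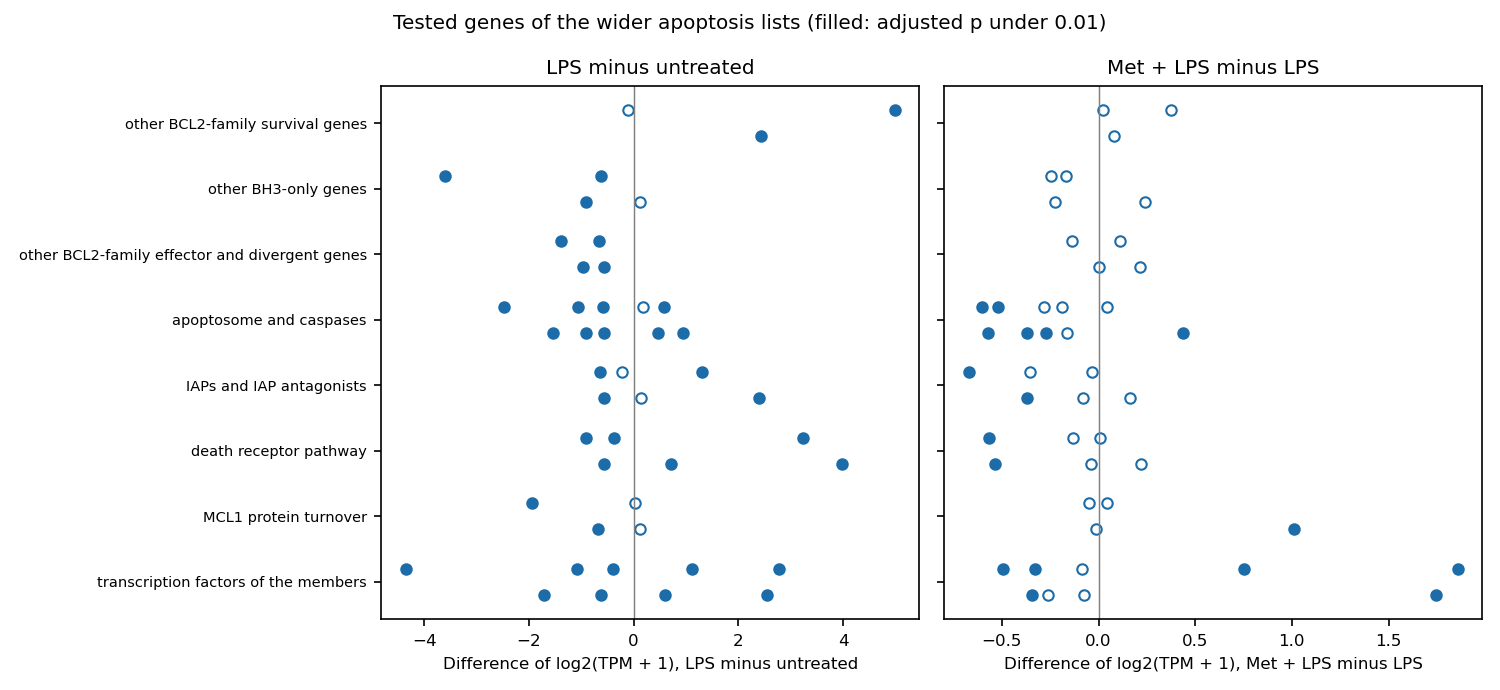
Differences of log2(TPM + 1) for each tested gene of the wider lists, LPS minus Untr (left) and Met + LPS minus LPS (right); every circle is a gene, filled where adjusted p is under 0.01, and the vertical offset within a list carries no value. The widest metformin differences in these lists, which leave out the cell type markers, are those of Ddit3 (1.86), Foxo3 (1.74) and Fbxw7 (1.01).

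Among genes that encode transcription factors of the members, LPS raised the NF-kappaB subunit genes Rel (2.77), Nfkb1 (2.55) and Rela (1.12) on the log2 scale, and Foxo3 fell by 4.35. Of the 9 tested genes of the list 4 were called higher and 5 lower in LPS (5 and 3 after rescaling). Of all tested genes, 16.2% were called higher and 60.1% lower there (30.6% and 27.6% after rescaling). Foxo3, whose product activates Bcl2l11 and Bbc3 in several cell types, was measured at 68.36 and 69.53 TPM in Untr, 2.33 and 2.52 in LPS and 11.24 and 9.72 in Met + LPS. Ddit3, the stress factor CHOP, was measured at 46.91 and 44.98 TPM in Untr, 13.19 and 13.44 in LPS and 49.96 and 51.78 in Met + LPS. With metformin Ddit3 was 1.86, Foxo3 1.74 and Atf4 0.75 higher than in LPS and E2f1 was lower (difference -0.49). In that comparison 3 of the 9 were called higher and 3 lower, beside 14.5% and 18% of all tested genes. Trp53, which encodes p53, was among the lower (difference -0.35). In the list of MCL1 protein turnover, Fbxw7, a ubiquitin ligase subunit that marks MCL1 for destruction, averaged 29.3 TPM in Untr, 6.84 in LPS and 14.8 in Met + LPS, and it fell by 1.95 with LPS and was 1.01 higher in Met + LPS than in LPS. The other 3 tested genes of that list were not called between Met + LPS and LPS, and Trim17 and Trp73 lay under 1 TPM. Transcript levels of these factors were measured here and their activity was not.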

How the data were processed

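Poly-A RNA of 6 BMDM libraries was sequenced. The deposited values are TPM per gene with Ensembl identifiers. The submitters' processing notes name STAR 2.6.1d, SAMtools 1.9, featureCounts and Subread 1.6.3 and the build GRCm38; how the authors computed TPM, treated multi-mapped reads and used strand is not given in the sources used here. Coordinates and lengths come from the table and GENCODE exons of GRCm38.

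The 12755 genes that reached 1 TPM in 2 or more of 6 libraries were analysed as log2(TPM + 1) with limma 3.58.1 (R 4.3.3; lmFit, eBayes with trend, all 3 groups in 1 fit, 3 residual degrees of freedom), Benjamini-Hochberg adjusted over all tested genes. Calls used adjusted p under 0.01, and fold cut-offs of 2 (against Untr) or 0.7 (Met + LPS against LPS) on the log2 scale. An exact permutation test of 2 against 2 libraries cannot go below p = 0.333 and was not used. Reads were recovered as TPM times exon length; 96.1% to 96.3% of values above 0 were whole within 0.02 reads, those of Pmaip1 were not, so its read counts are not printed. Replicates differed beyond counting noise (chi-square per gene 1.99 to 3.8). Motifs and identities came from the RefSeq promoter table (GRCm38.p6; 9 members searched, no sequence of Pmaip1 used) and Biopython 1.88.

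The 10 members and all other lists were chosen with earlier results of these data known, so they are descriptions and not independent evidence. Of each list at most 4 genes were named, those with the largest called difference in the comparison described, besides those under 1 TPM. Exceptions to this rule were Rela, Trp53, Bik, Bcl2l2, Zbtb46 and Xcr1, which were named after their values were seen. A further gene that this rule would name is not reported here. For each member the 3 nearest patterns were named. Alternatives were another pseudocount, filter, scaling, threshold, fit or replicate block, voom on recovered reads, and leaving out each library. The scripts were tested on simulated data.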

Additional observations from a re-analysis of the deposited data

How the results depend on the processing

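Each member's difference was recomputed under 14 alternatives. For LPS against Untr 124 of 140 kept their direction and side of the threshold, for Met + LPS against LPS 114 and for Met + LPS against Untr 127. Median-ratio rescaling lowered the number of members called in LPS against Untr from 10 to 6 and turned Bbc3 to 0.12 and Bak1 to 0.39; against Untr, Met + LPS turned to 0.10 for Mcl1, 0.0822 for Pmaip1, 0.0114 for Bax and 0.33 for Bak1. By the rescaling's construction these follow from the median shift of the table. In Met + LPS against LPS the number called fell from 7 to 4 without the filter on low values and without the trend, and ran from 4 to 7 when a library was left out (4 without LPS 2, Met + LPS 1 or Met + LPS 2); the cause was not tested. Bcl2, Bbc3, Pmaip1 and Bcl2l1 kept their calls there under all alternatives. A group left with 1 library was assumed to vary like the others. Replicate numbers are shared between groups, and the sample titles also label the libraries A and B. Over all tested genes, same-numbered libraries did not deviate together (correlations -0.004, 0.028 and 0.006). Such correlations cannot exclude a shared culture or preparation, which was not tested. With the replicate block 9 members were called in LPS against Untr, 6 in Met + LPS against LPS and 10 in Met + LPS against Untr; Bak1 (adjusted p = 0.014) and Bcl2l11 (adjusted p = 0.0121) lost the call. Depth limits Bcl2 and the untreated level of Bcl2a1d, which rests on 23 and 35 reads.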
